A study of Homo sapiens with 7 samples.

Results

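LUZP2 and NCAM2 are a pair of very long genes in gene-poor stretches of the genome, and their start sites were among the most widely looped of the LNCaP prostate carcinoma cells. The loops described here were those with an anchor over a window of 500 bp centred on any annotated start site of LUZP2 or NCAM2, together with all loops that had both anchors at chr11:23.0 to 25.2 Mb, the stretch that holds the LUZP2 start and the sequence before it. This gave 717 of the 354783 loops of 3 cell lines, with 687 of 149226 in LNCaP, 11 of 42027 in T-47D and 19 of 163530 in Ishikawa. Of the LNCaP loops, 202 touched a LUZP2 or NCAM2 start site and 554 lay in the chromosome 11 region, 69 of which did both. The genes were chosen by their high number of linked distal anchors in LNCaP (anchors joined to a start site that hold no protein-coding start site themselves), and the region by its loops, so those numbers and their contrast with the other lines are given as a description with no test.

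LUZP2 encodes a leucine zipper protein that is best known from brain and spinal cord. NCAM2 encodes a cell surface adhesion protein of the immunoglobulin superfamily, a relative of NCAM1 that is known for its role in olfactory axons. Active promoters and enhancers carry acetylation of lysine 27 of histone H3 (H3K27ac), and an enhancer can act on a promoter far along the chromosome when the fibre folds so that they meet. HiChIP captures such contacts by cutting and religating chromatin in place and then pulling down the fragments that carry a chosen mark.

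H3K27ac HiChIP had been run on 7 samples of 3 established human cancer cell lines. These were 4 samples of Ishikawa (endometrial adenocarcinoma, DpnII digest), 1 of T-47D (ductal carcinoma of the breast, MboI digest) and 2 of LNCaP (MboI digest), an androgen-sensitive prostate carcinoma line. The Ishikawa cells had been given DMSO as vehicle in 2 samples and 10 nM 17β-estradiol for 1 h in the others, whereas no treatment is stated for T-47D or LNCaP. The samples of a line had been pooled into a single loop list, so each line had 1 value with no replicate, and enzyme, read length, depth and cell line cannot be told apart between Ishikawa and the other lines. A loop's value was the number of read pairs that joined its anchors, with a minimum of 3, and a value of 0 means that no loop reached that minimum. The lists held 1805322 read pairs in LNCaP, 351260 in T-47D and 1040329 in Ishikawa. Intervals given for read pairs are exact Poisson 95% intervals that cover counting error only. The LNCaP list bore marks of its line at the prostate luminal genes KLK3, KLK2, TMPRSS2 and SLC45A3, which had 15, 15, 25 and 23 linked distal anchors. In T-47D they had 0, 0, 3 and 0, and in Ishikawa 0, 0, 11 and 1. KLK3 and KLK2 each held 2936 read pairs in LNCaP, so they may share their loops and not be separate marks. FOLH1, another prostate luminal gene, had 0 in each list. Of 7 neuroendocrine or neural genes, 1 had any in LNCaP (SYP, with 1), 1 in T-47D and 2 in Ishikawa, beside 52.4%, 34.7% and 52.5% of all protein-coding genes.

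LUZP2 (ENSG00000187398) spans chr11:24518516-25104184 on the plus strand of hg19 (GRCh37), a length of 586 kb, and has 8 annotated start sites. Of these, 6 lie within 241 bases of each other at the 5′ end, LUZP2-208 starts 232 kb inside the gene and LUZP2-204 starts 395 kb inside. NCAM2 (ENSG00000154654) spans chr21:22370727-22915650 on the plus strand, a length of 545 kb, with 5 start sites at 0, 241, 282, 292 and 465 kb from the 5′ end. In LNCaP, each gene had exactly 2 anchors over a start site, 1 at the 5′ end and 1 deep inside the gene. The sequences show how unlike these starts are. Each is the 250 bases before a start site, read from GRCh37, with every CG dinucleotide in capitals. The first pair precede the 5′ starts, the next pair precede the internal starts looped in LNCaP, and the last precedes the internal NCAM2 start looped in T-47D.
LUZP2-206 (chr11:24518266-24518515, plus strand): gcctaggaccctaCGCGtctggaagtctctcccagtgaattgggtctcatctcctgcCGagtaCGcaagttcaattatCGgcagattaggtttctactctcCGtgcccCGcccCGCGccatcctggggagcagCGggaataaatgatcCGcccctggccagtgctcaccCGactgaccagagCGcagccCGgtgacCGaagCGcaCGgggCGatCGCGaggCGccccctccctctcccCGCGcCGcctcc
NCAM2-202 (chr21:22370477-22370726, plus strand): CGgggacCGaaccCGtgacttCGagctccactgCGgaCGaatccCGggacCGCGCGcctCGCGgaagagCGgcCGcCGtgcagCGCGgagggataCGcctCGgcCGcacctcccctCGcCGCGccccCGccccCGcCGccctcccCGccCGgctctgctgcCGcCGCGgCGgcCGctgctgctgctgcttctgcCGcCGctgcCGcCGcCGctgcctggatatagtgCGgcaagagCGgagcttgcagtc
LUZP2-208 (chr11:24750436-24750685, plus strand): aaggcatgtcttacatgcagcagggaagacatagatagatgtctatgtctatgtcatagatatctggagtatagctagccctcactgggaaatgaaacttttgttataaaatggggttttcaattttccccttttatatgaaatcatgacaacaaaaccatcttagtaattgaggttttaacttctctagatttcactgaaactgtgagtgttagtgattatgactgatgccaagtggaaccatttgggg
NCAM2-204 (chr21:22835811-22836060, plus strand): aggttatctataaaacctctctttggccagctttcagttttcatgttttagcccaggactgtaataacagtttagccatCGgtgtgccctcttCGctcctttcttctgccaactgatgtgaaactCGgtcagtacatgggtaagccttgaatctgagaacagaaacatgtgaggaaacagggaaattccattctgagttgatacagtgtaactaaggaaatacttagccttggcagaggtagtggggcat
NCAM2-205 (chr21:22611412-22611661, plus strand): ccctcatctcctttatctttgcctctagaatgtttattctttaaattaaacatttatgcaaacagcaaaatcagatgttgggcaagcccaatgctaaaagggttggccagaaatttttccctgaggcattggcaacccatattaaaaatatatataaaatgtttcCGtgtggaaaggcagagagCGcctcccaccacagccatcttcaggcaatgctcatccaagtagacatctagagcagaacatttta
The 5′ starts were preceded by GC-rich sequence of the CpG island type, with 65.2% GC and 24 CG dinucleotides before LUZP2-206 and 76.8% GC and 40 before NCAM2-202. The median over 20163 protein-coding genes, each at its 5′ start, was 59.6% GC and 14 CG dinucleotides. LUZP2 had more of them than 75.5% of genes and NCAM2 more than 97.8%. The internal starts lie in introns and lack this feature, with 0 CG dinucleotides at 36.8% GC before LUZP2-208, 3 at 43.6% before NCAM2-204 and 2 at 40.0% before NCAM2-205. NCAM2-204 and NCAM2-205 are transcripts with no defined coding sequence, whereas LUZP2-208 is annotated as coding.

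Motif letters were searched on both strands of the same windows. The forkhead motif TGTTTAC was in none of these 5 windows, and it was in 2.45% of all promoter windows of that length. The GATA motif AGATAA, in 8.01% of promoters, was present once before NCAM2-204 and once before NCAM2-205. GATC, the cut site of both enzymes, was in 36.6% of promoters and in 1 of the 5 windows, that of LUZP2-206, which held 2. These are matches of letters and not measurements of binding.

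In LNCaP, the LUZP2 start sites were joined to 73 partner anchors by 92 loops, with 1128 read pairs (1063 to 1196). Of the partners, 70 were distal, meaning that they held no start site of a protein-coding gene, which placed LUZP2 at rank 3 of 20163 genes. NCAM2 had 67 partners, 110 loops and more read pairs, 3671 (3553 to 3792). It had 65 distal partners, at rank 5. The order of the 2 genes by partners turned round with at least 5 read pairs per loop (50 for LUZP2 and 59 for NCAM2), with at least 10 (27 and 50) and at the depth of T-47D (22.7 and 45.0 expected). The order held with 1 start site per gene (71 and 48) and with partners under 5 kb apart merged (54 and 41). The ranks around them were held by NAALADL2 with 74, MYC with 72 and TBL1XR1 with 66, and the next gene, ANK3, had 62. At least 1 distal partner was held by 52.4% of genes in LNCaP, 34.7% in T-47D and 52.5% in Ishikawa, and 1.65% of genes had 20 or more in LNCaP.

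Neither other line had an anchor over any LUZP2 start site, so LUZP2 had 0 promoter loops there. Such a pattern, with 20 or more distal partners in LNCaP and none in the others, was held by 0.218% of genes (44), and 9.03% had at least 1 distal partner in LNCaP and none in the others. Set against each list's total, the LUZP2 loops of LNCaP made up 625 of every 1000000 read pairs. With 3 read pairs put in place of each 0, that is 73.2-fold higher than T-47D and 217-fold higher than Ishikawa. These ratios are not lower bounds, because the minimum of 3 holds for each loop and several weaker loops could be missing. NCAM2 was looped in T-47D from another start site. The only T-47D anchor over an NCAM2 start, at chr21:22605891-22614127, covered NCAM2-205 and had 11 partners, all distal, with 77 read pairs (60.8 to 96.2). That is 219 of every 1000000 read pairs against 2033 in LNCaP, a ratio of 9.28 (exact 95% interval 7.40 to 11.8, counting error only). With the 5′ start of NCAM2 alone, the values were 1669 read pairs in LNCaP and 0 in T-47D. Depth differed between the lists, and when LNCaP was thinned to the read pairs of T-47D, an expected 21.1 distal partners remained for LUZP2 and 43.0 for NCAM2. In Ishikawa, NCAM2 had a single loop of 3 read pairs, from NCAM2-203 to an intron 74.7 kb away. The combination of 20 or more distal partners in LNCaP with 1 or more in T-47D was held by 1.07% of genes (216).

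A second count took only loops with both anchors wholly inside the gene. It leaves out the LNCaP 5′ start anchors of both genes, which begin before the gene's first base. Loops of those anchors to partners in the gene held 1521 read pairs for NCAM2 and 454 for LUZP2. Loops with both anchors inside NCAM2 numbered 206 with 3458 read pairs in LNCaP, 18 with 315 in T-47D and 5 with 22 in Ishikawa. Scaled to each list's total, the ratio of LNCaP to T-47D was 2.14 (1.90 to 2.40) in this count, against 9.28 for the promoter loops. The lower ratio lacks the loops of the LNCaP 5′ anchor, so the change between the ratios cannot be read as a difference between gene and start sites. Loops with both anchors inside LUZP2 numbered 146 with 2216 read pairs in LNCaP, 0 in T-47D and 3 with 10 in Ishikawa. The T-47D loop anchor nearest to the 5′ start of NCAM2 lay 2.56 kb inside the gene, at chr21:22373289-22375483, with 5 loops and 71 read pairs, and so fell outside the start window of 500 bp. Unlike the LNCaP 5′ anchor, it could enter the count of loops inside the gene. For LUZP2, the nearest anchor of a loop was 1689 kb away in T-47D and 110 kb away in Ishikawa, leaving out anchors that were joined only to themselves.

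**Figure D1:**
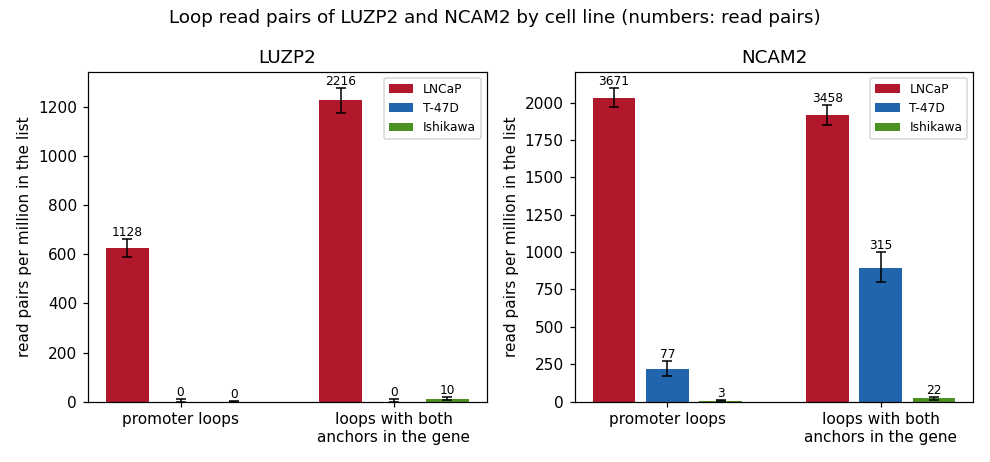
Loop read pairs, scaled to 1000000 read pairs in each list, for LUZP2 (left) and NCAM2 (right), for loops of the start sites and for loops with both anchors in the gene, with exact Poisson 95% intervals and the read pairs written above the bars. LUZP2 stands at 0 in T-47D in both counts, while NCAM2 in T-47D has 77 read pairs at the start sites and 315 in loops inside the gene. The second count lacks loops of the LNCaP 5′ start anchors, which begin before the gene.

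The 5′ anchor of LUZP2, chr11:24512919-24524660, covered the 6 clustered starts and had 71 partners with 900 read pairs (842 to 961). Promoter anchors of like width (742 in LNCaP) had a median of 20 partners and a maximum of 74. Its loops held from 3 to 93 read pairs, with a median of 7, and 11 of them were at the minimum of 3. The internal anchor at LUZP2-208, chr11:24750106-24759021, had 22 partners and 249 read pairs (219 to 282), against a median of 15 partners for anchors of like width. A loop of 21 read pairs joined the 2 start anchors across 236 kb. Of 71 other partners, 20 were joined to both start anchors, and 18 of these 20 had more read pairs to the 5′ anchor.

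LUZP2 partners lay on both sides of the gene and within it. Leaving out its own start anchors, 30 were upstream with 351 read pairs, 26 were in the gene with 606 and 15 were downstream with 150. The strongest partner of the 5′ start was chr11:24652541-24663655, an intronic anchor 140 kb into the gene, with 93 read pairs to the 5′ start and 26 to LUZP2-208. Next was chr11:24847328-24866624, 338 kb into the gene and over an exon, with 85 and 40. The strongest partner of the internal start was chr11:24760782-24766067, an intronic anchor just beyond it, with 42 read pairs. Inside the gene, the anchor at chr11:24584359-24596317 had 37 read pairs to the 5′ start.

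Several far partners of LUZP2 were stronger than most of those in the gene. The intergenic anchor chr11:23512569-23524974, 1000 kb before the start, had 49 read pairs to the 5′ start and 7 to LUZP2-208. Its neighbour chr11:23544536-23556447, 968 kb before the start, had 44, and chr11:23130712-23153293, 1377 kb before the start, had 34. An anchor within the long non-coding gene ENSG00000246225, chr11:22937365-22954375, had 33 across 1573 kb. In all, 8 partners between 900 and 1100 kb before the start held 152 read pairs, and 10 partners between 1300 and 1700 kb before it held 119. These bounds were drawn after the positions were seen. Downstream, the anchor chr11:25546881-25552367, 1031 kb after the 5′ start and beyond the gene's end, had 28 and 14 read pairs to the 5′ and internal starts. Only 2 partners held the start of another gene: SVIP together with ENSG00000246225, with 3 read pairs, and the non-coding LINC02699, with 4. SVIP encodes a small inhibitor of the degradation of misfolded proteins at the endoplasmic reticulum.

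**Figure D2:**
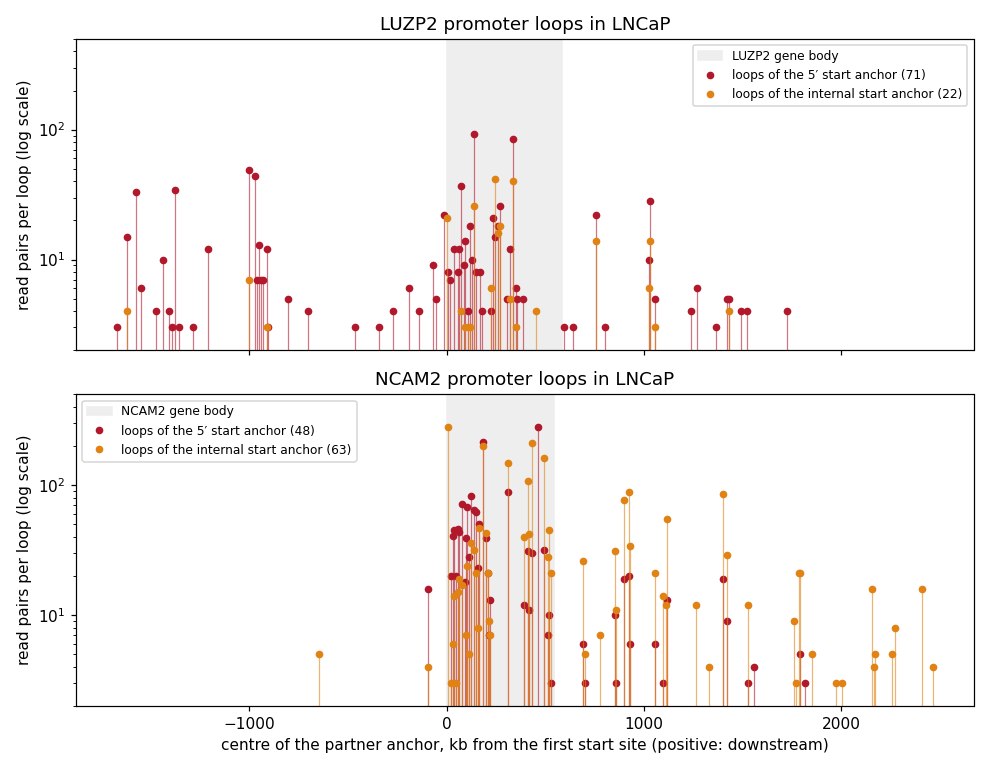
Partner anchors of LUZP2 (top) and NCAM2 (bottom) start anchors in LNCaP by distance of their centre from the first start site (kb) and by read pairs per loop (log scale), with the 5′ and internal start anchors in separate colours and the gene body shaded. LUZP2 partners lie on both sides, with 30 upstream, whereas NCAM2 partners lie in the gene and downstream, with 2 upstream.

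NCAM2 was looped both from its 5′ end and from deep inside the gene. The 5′ anchor, chr21:22369681-22385874, had 48 partners and 1669 read pairs (1590 to 1751). The internal anchor at NCAM2-204, chr21:22822768-22850146, had 63 partners and 2281 read pairs (2188 to 2377). It is 27.4 kb wide, wider than 99.7% of promoter anchors in LNCaP, and anchors of like width (61) had a median of 37 partners. The 298 promoter anchors like the 5′ anchor in width had a median of 26.5. The 2 start anchors were joined to each other, across 459 kb, by 279 read pairs, the strongest loop of either gene's start sites. They shared 44 of 65 other partners, of which 18 had more read pairs to the 5′ anchor and 25 had more to the internal anchor.

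NCAM2 partners were almost all in the gene or downstream of it. Leaving out its own start anchors, 30 partners in the gene held 2587 read pairs (76.3%), 33 downstream held 780 (23.0%) and 2 upstream held 25 (0.737%). For LUZP2, by comparison, 31.7% of read pairs were upstream. The strongest NCAM2 partner was chr21:22542859-22567295, an intronic anchor 184 kb into the gene and 24.4 kb wide, with 214 read pairs to the 5′ start and 201 to NCAM2-204. An anchor over an exon at chr21:22800795-22809144 had 30 read pairs to the 5′ start and 212 to the internal start. An intronic anchor at chr21:22677064-22691911 had 88 and 149. Those at chr21:22854639-22871513 and chr21:22783105-22786201, also in introns and near the internal start, had 32 and 162, and 31 and 108. An intronic anchor at chr21:22489804-22502112, nearer to the 5′ end, had the opposite order, with 83 and 36. Partner anchors in the gene held from 16 to 415 read pairs each, counting both starts, with a median of 57.

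Downstream of NCAM2, the strongest partners were an intergenic anchor at chr21:23291950-23295863, 923 kb from the 5′ start, with 109 read pairs to the 2 starts together, and an anchor within the non-coding gene ENSG00000226043 at chr21:23764754-23778154, 1401 kb away, with 105. All other genes whose starts lay in NCAM2 partners were non-coding: LINC01687 in an anchor with 27 read pairs, LINC00308 and LINC01687 in another with 17, D21S2088E with 16, and RN7SKP147 and RNU6-772P with 5. No partner of NCAM2 held the start of another protein-coding gene. None could, because loops in the LNCaP list span no more than 2 Mb and the nearest such genes lie farther off.

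In T-47D, the strongest partner of NCAM2-205 was chr21:22427299-22438867, an intronic anchor 62.4 kb from the 5′ end, with 26 of the 77 read pairs. The other 10 had from 3 to 9 read pairs. Of the 11, 6 lay in the gene and 5 lay beyond it, from 830 to 1402 kb downstream of the 5′ start. Although the start sites differed, 8 of the 11 T-47D partners (72.7%) overlapped a LNCaP partner of NCAM2 by at least 1 base, and 9 of the 67 LNCaP partners (13.4%) were overlapped in return. Of the 8, 1 overlapped the 5′ start anchor of LNCaP itself and not a distal partner. Over the whole lists, 61.1% of T-47D anchors overlapped a LNCaP anchor of any kind and 26.5% of LNCaP anchors a T-47D anchor. The overlapped LNCaP partners included the downstream anchors with 109, 105 and 96 read pairs. In T-47D, the matching anchors had 9, 3 and 5. The Ishikawa partner overlapped none.

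**Figure D3:**
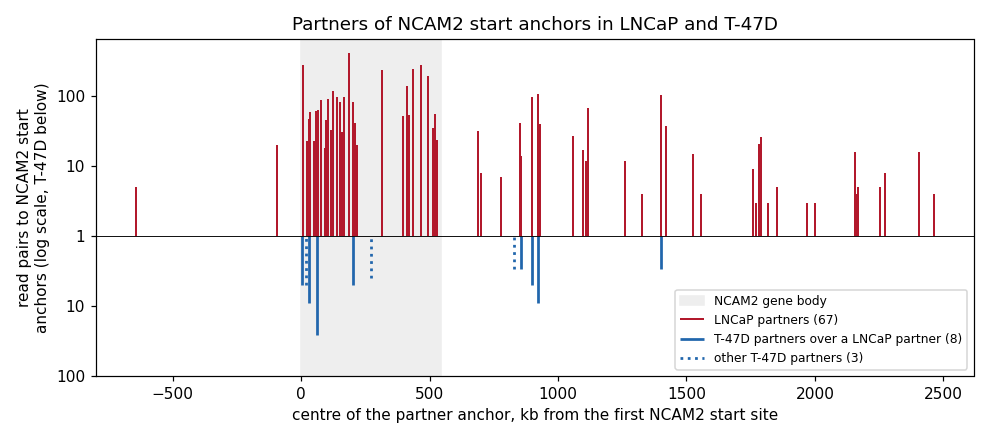
Partner anchors of NCAM2 start anchors in LNCaP (above the line, 67 partners, read pairs to the 2 start anchors summed) and T-47D (below the line, 11 partners) by distance from the first NCAM2 start site (kb), with read pairs on a log scale in both directions. Of the T-47D partners, 8 overlap a LNCaP partner (solid) and 3 do not (dotted), and both lines show partners about 900 and 1401 kb downstream.

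Loops of both genes were long. Of 92 LUZP2 loops, 28 spanned 1 Mb or more (30.4%), and of 110 NCAM2 loops, 25 did (22.7%). The same share was 15.2% for NAALADL2, 13.3% for TBL1XR1 and 1.35% for MYC, and 2.39% of all promoter loops in LNCaP. Among the 333 genes with 20 or more distal partners, whose median was 3.85%, LUZP2 ranked 10 and NCAM2 ranked 25. The median span was 426 kb for LUZP2 and 411 kb for NCAM2, against a median of 242 kb over the 333 genes.

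Read pairs usually fall with span, so loops were set beside all LNCaP promoter loops of like span. NCAM2 loops were well above that level at short and middle range, but anchor width was not matched. The NCAM2 start anchors are 16.2 and 27.4 kb wide, wider than 98.8% and 99.7% of promoter anchors in LNCaP. Those of LUZP2, at 11.7 and 8.92 kb, are wider than 96.7% and 92.9%. What width adds to the read pairs of a loop was not tested. At 5 to 50 kb the median was 42 for NCAM2, 14 for LUZP2 and 10 for all promoter loops. At 50 to 200 kb, 19 NCAM2 loops had from 16 to 214 read pairs with a median of 45.0, and all 19 lay above the median of all promoter loops, 6.0. At the same span, 24 LUZP2 loops had from 3 to 93 with a median of 8.0. At 200 to 500 kb the medians were 20 for NCAM2, 5 for LUZP2 and 4 for all. At 1000 to 2000 kb they were 5.0, 4.5 and 3.0, and the strongest loop there belonged to LUZP2 (49 against 21 for NCAM2).

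**Figure D4:**
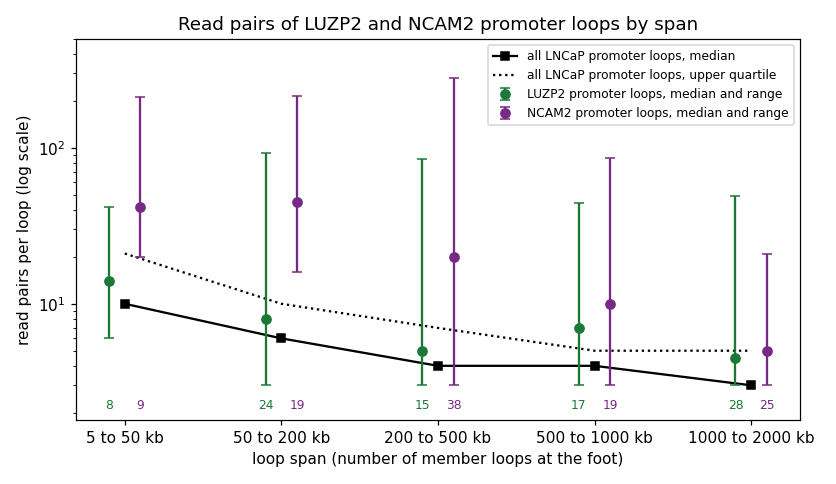
Read pairs per loop (log scale) of LUZP2 and NCAM2 promoter loops in LNCaP by span, as the median with the range from lowest to highest and the number of loops at the foot, beside the median and upper quartile of all LNCaP promoter loops. The NCAM2 median at 50 to 200 kb is 45.0 against 6.0 for all promoter loops, while the LUZP2 median there is 8.0. Loops are matched on span and not on anchor width.

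The partners of each gene were also joined to each other. For LUZP2 many of these loops lie in the chromosome 11 region and so were among the loops that chose it, while for NCAM2 they were not part of the choice. Of the 2169 pairs of distal LUZP2 partners that lay 5 kb to 2 Mb apart, 562 (25.9%) were joined by a loop. For NCAM2 it was 333 of 1913 pairs (17.4%). The shares were 37.3% for NAALADL2, 25.4% for MYC and 31.1% for TBL1XR1. Of the 562 loops between LUZP2 partners, 340 lay in the region. The 562 held 12137 read pairs, more than the 1128 of the LUZP2 start sites, whereas those between NCAM2 partners held 3183, close in size to the 3671 of its start sites.

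The chromosome 11 region held 554 loops with 9672 read pairs (9480 to 9867) in LNCaP, against 18 loops with 73 (57.2 to 91.8) in Ishikawa and 0 in T-47D. LUZP2 start sites took part in 69 of the LNCaP loops, with 923 read pairs, so most of the signal joined other anchors. The 84 LNCaP anchors included 2 with a protein-coding start site, both of LUZP2, and 1 more with the start of the non-coding LINC02718. The heaviest part was the first 600 kb, over 900 kb before the LUZP2 start, which holds no protein-coding start site in an anchor and includes the LINC02718 anchor. Loops within it numbered 161 and held 5069 read pairs (52.4%). Loops within the LUZP2 end of the region, from 10 kb before its start, numbered 177 with 2699 (27.9%). Loops between those stretches numbered 91 with 784 (8.11%).

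The strongest loop of the region joined chr11:23130712-23153293 to chr11:23512569-23524974 with 522 read pairs. The second of these was joined to chr11:23544536-23556447 with 485, and the first to that same anchor with 296. These 3 intergenic anchors are the far partners of the LUZP2 start described above, with 34, 56 and 44 read pairs to its start anchors. Within the region, the anchor chr11:23512569-23524974 had 65 partners, chr11:23130712-23153293 had 57, and the 5′ anchor of LUZP2 had 54. The contacts between the first 600 kb and LUZP2 were not limited to its start sites. Of the 91 such loops, 15 ended at a LUZP2 start anchor, with 207 read pairs and a median of 7.0. The other 76 ended at other anchors, with 577 read pairs and a median of 4.0. The strongest of the 15 had 49 read pairs, to the 5′ start, and the strongest of the 76 had 45, to the intronic anchor chr11:24652541-24663655. Of 26 Ishikawa anchors in the region, 11 overlapped a LNCaP anchor, and 11 of the 84 LNCaP anchors were overlapped in return, which is 42.3% and 13.1%. Over the whole lists these shares were 18.6% and 40.4%. No Ishikawa loop had over 9 read pairs, and 3 of the 18 lay inside LUZP2.

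**Figure D5:**
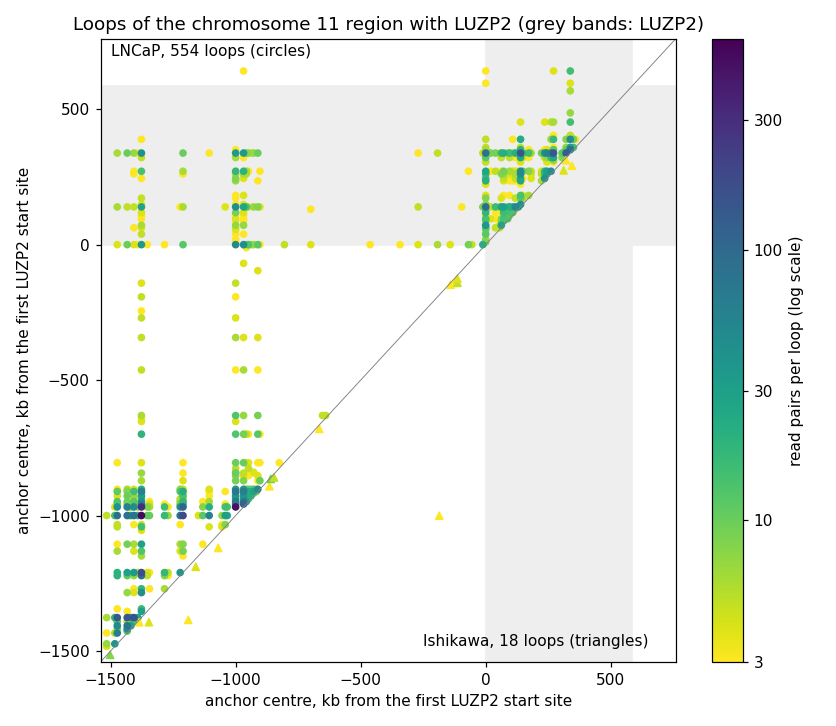
Loops of the chromosome 11 region, each point placed by the centres of its anchors in kb from the first LUZP2 start site, with read pairs as colour on a log scale and LUZP2 as grey bands. LNCaP (554 loops, above the diagonal) shows dense blocks before -900 kb and inside LUZP2 with rows of points joining them, and Ishikawa (18 loops, below the diagonal) shows scattered weak loops.

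None of the 65 distal partners of NCAM2 was linked to another protein-coding gene, and 8 of the 70 of LUZP2 were. Those 8 were all linked to SVIP, 4 of them to GAS2, which encodes a cytoskeletal protein, and 1 to FANCF, a gene of DNA repair. Over the 333 genes with 20 or more distal partners, the median share of partners with no other gene was 8.0%, and 13 genes had 90% or more. The share was 88.6% for LUZP2 and 100% for NCAM2, beside 82.4% for NAALADL2, 83.3% for TBL1XR1 and 63.9% for MYC. The nearest protein-coding genes were far off. Those of LUZP2 were CCDC179, 1636 kb before, and ANO3, 1106 kb after, each with 0 distal partners in LNCaP. Those of NCAM2 were TMPRSS15, 2513 kb before, with 0, and MRPL39, 4042 kb after, with 1. SVIP had 8 distal partners with 42 read pairs in LNCaP and GAS2 had 4 with 21. Loops in the LNCaP list span no more than 2 Mb, so contacts between NCAM2 and its protein-coding neighbours could not be listed. Nearly all distal partners of NCAM2 also lie over 2 Mb from those neighbours. Its share of 100% was thus nearly fixed by the span limit and cannot be read against the other genes.

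The distal partners were AT-rich. Their median GC content was 34.2% for LUZP2 and 33.8% for NCAM2, against 40.5% over all 30738 distal anchors of LNCaP. The forkhead motif TGTTTAC was found 2.29 and 2.52 times per 10 kb of LUZP2 and NCAM2 partners. It was found 2.21 times over all distal anchors, and 2.61 and 2.63 times in distal anchors with GC content in the middle range of each gene's partners. AGATAA was found 12.18 and 12.05 times per 10 kb, against 8.53 over all distal anchors and 11.6 and 11.9 in those of like GC content. GATC was found 20.3 and 18.4 times per 10 kb, against 22.8 over all distal anchors and 19.1 and 18.8 in those of like GC content. The motif densities of the partners were thus near those of anchors of like GC content.

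Few genes related to NCAM2 were looped in LNCaP. Of 20 immunoglobulin superfamily adhesion genes related to NCAM2, 3 had a distal partner in LNCaP (ALCAM with 8, BCAM with 7 and CADM2 with 2), beside 52.4% of all genes. In T-47D 4 of the 20 did, and in Ishikawa 11, beside 34.7% and 52.5% of all genes. NCAM1 itself had 0 in LNCaP, 0 in T-47D and 2 in Ishikawa. CADM1, a synaptic and epithelial adhesion gene, had 7 in T-47D and 4 in Ishikawa but 0 in LNCaP.

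By the numbers of distal partners in the 3 lists, compared as the Euclidean distance of log2(1 + partners) over 3 values, the genes most like LUZP2 were PBOV1 (45 in LNCaP), KCNN2 (41) and DNASE2B (37), all with 0 in T-47D and Ishikawa. Their distances were 0.63, 0.76 and 0.90. The genes most like NCAM2 were MIPOL1 (45 in LNCaP, 12 in T-47D and 1 in Ishikawa), MAML3 (45, 10 and 2) and BTG1 (34, 11 and 1), at distances of 0.53, 0.79 and 0.92. No more than this likeness in partner number was measured.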

How the data were processed

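H3K27ac HiChIP was deposited for 7 samples of 3 cell lines as 1 loop list per line. Per the study's methods and the submitters' processing notes, the authors aligned reads to hg19 with HiC-Pro, called loops with hichipper, and removed loops with a false discovery rate of 0.05 or more or under 3 read pairs. The deposited values are counts of read pairs per loop, not scaled for depth, with samples pooled. The Ishikawa list was a run of 4 parts, each sorted on its own, which the labels do not tie to samples, and counts of the same anchor pair were summed. Only pairs of different anchors on 1 chromosome were kept. In LNCaP, spans ran from 5 kb to 2 Mb and self-joined anchors were absent, whereas the other lists were not filtered in this way.

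Start sites came from the GENCODE annotation on GRCh37, and a start window was 500 bp centred on the site. A partner is the anchor at the other end of a loop, and it is distal if it overlaps no start window of a protein-coding gene. Each loop was counted once per gene. Distances run from the gene's first start site to the partner's centre, and spans from centre to centre. Overlap required 1 base. Python 3.11.15, pandas 2.3.3, numpy 2.4.6 and scipy 1.17.1 were used, and the link counting was tested on simulated data. Depth was 351260 to 1805322 read pairs per list. With pooled lists there is no replicate error. PCR copies cannot be told apart from separate molecules, so intervals and the floor of 3 read pairs cover counting error only. LUZP2, NCAM2, the region and the gene lists were chosen with earlier results of these data known. The genes named were LUZP2 and NCAM2, any gene with a start in an anchor joined to theirs, their nearest protein-coding neighbours, the most like genes by partner number, NAALADL2, MYC and TBL1XR1 as other widely looped genes, and the listed family and marker genes, of which some marker genes and 1 motif are not reported here. ANK3 and FANCF were named after their values were seen. Alternatives covered the minimum of read pairs, thinning to the shallowest list, the start window, the start sites used, the span, merging of near partners, the Ishikawa parts, the region's bounds and the reference point for distance.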

Additional observations from a re-analysis of the deposited data

Results flagged for a closer look

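Read pairs that joined an anchor to itself were left out of the loops, and some lay inside both genes where few loops were listed. In T-47D, 8 anchors in NCAM2 held 412 such read pairs, more than the 315 of the loops with both anchors in the gene, and 15 of them were at the anchor over NCAM2-205. In T-47D, 1 anchor in LUZP2 held 7, although no loop lay there. In Ishikawa, 21 such read pairs lay in NCAM2 and 4 in LUZP2. Such pairs were common throughout these lists. Over the whole T-47D list, 15042 anchors held 308759 of them, beside 351260 read pairs in loops. In Ishikawa, 47450 anchors held 472157, beside 1040329 in loops. The LNCaP list has no pairs of this kind, so it could not be compared in this measure, and because the Ishikawa samples were pooled, the DMSO samples could not be set apart as controls. The values were noted because they exceed the 3 read pairs put in place of a count of 0.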

How the results depend on the processing

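Set against each other, LUZP2 had more partners than NCAM2 in LNCaP (73 and 67, of which 70 and 65 distal), but fewer with at least 5 read pairs per loop (50 and 59, of which 48 and 57 distal), with at least 10 (27 and 50, of which 25 and 48 distal) and when thinned (22.7 and 45.0, of which 21.1 and 43.0 distal), and as many, 49 each, at spans of 20 kb to 1 Mb. LUZP2 stayed ahead with 1 start site per gene (71 and 48, of which 70 and 48 distal). It also did with partners under 5 kb apart merged (54 and 41, of which 54 and 40 distal). Of 164 values recomputed, 101 moved by less than their counting error or 1.5 times and 63 moved further, and a start window of 2 kb moved none of 18. The 101 include every value for LUZP2 in T-47D and Ishikawa and for the region in T-47D, which were 0 in each setting. Most settings could only leave a 0 at 0, so the tally does not measure how stable the other values were. With at least 5 read pairs per loop, LUZP2 kept 1013 read pairs in LNCaP, the chromosome 11 region had 9052, and NCAM2 in T-47D had 7 partners, all 7 distal. With at least 10, LUZP2 had 27 partners, 25 distal, and 847 read pairs, NCAM2 had 3481 read pairs, the region had 203 loops and 7964 read pairs, and NCAM2 in T-47D had 1 partner, 1 distal, and 26 read pairs. Thinned to the 351260 read pairs of T-47D (19.5% of LNCaP), the expected values in LNCaP were 22.7 partners, 21.1 distal and 162 read pairs for LUZP2, 43.0 distal and 668 read pairs for NCAM2, and 173 loops and 1549 read pairs for the region, all above the T-47D values of 0, 0 and 0, 11 and 77, and 0 and 0. With the 5′ start alone, read pairs in LNCaP were 900 for LUZP2 and 1669 for NCAM2, and NCAM2 in T-47D had 0 partners, 0 distal and 0 read pairs. Spans of 20 kb to 1 Mb left 768 read pairs for LUZP2, 3446 for NCAM2 and 7746 for the region. Merging partners under 5 kb apart left NCAM2 with 41 partners, 40 distal. Counting loops with 1 anchor in the region gave 13984 read pairs. Among the other values, the median distance of LUZP2 partners from the first start went from 596 kb to 330 kb at 5 read pairs and 322 kb at 10, that of NCAM2 from 644 kb to 416 kb at 10 and to 411 kb when measured from the centre of the start anchor, and the share of joined partner pairs at 10 read pairs was 10.7% for LUZP2 and 5.02% for NCAM2. Raising the minimum, thinning, using fewer start sites and narrowing the span each counted fewer loops by construction.

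Replicates could not be left out in turn because the samples of each line were deposited as 1 pooled list. No paired analysis was possible because the lists carry no replicate and no test was made. Depth limits what the zeros mean: loops under 3 read pairs are not listed, and T-47D had 19.5% of the LNCaP read pairs. Cell line, number of samples and list filtering cannot be told apart. DNA copy number and expression were not analysed here.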
